A study of Mus musculus with 24 samples.

Results

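Primary murine bone marrow-derived macrophages (BMDMs) that had received conditioned media (CM) of KEAP1 KO lung cancer cells were compared with BMDMs that had received control media, both with vehicle. The members are the 3 libraries labelled with KEAP1 KO CM and vehicle and the 3 labelled with control media and vehicle, 6 of the 24 libraries of the study, and the comparison covers every gene of the deposited table. These groups are called KEAP1 KO/vehicle and media/vehicle. In all groups the marrow came from C57BL/6 mice, was cultured with 20 ng/mL M-CSF for 5 days and then for a further 48 h, and the macrophages themselves carried no edit. RNA was taken 24 h after the media were added. The age and number of the marrow donors are not given in the sources used here, and the marrow suspension was split evenly over wells, so the p-values measure only the spread between samples of a group, which may be technical and was pooled over all 8 groups of 3.

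The source of KEAP1 KO CM was the LL2 line of mouse Lewis lung carcinoma, here carrying luciferase, after Keap1 had been disrupted in it with CRISPR plasmids. Whether this line was a single clone is not given in the sources used here. The cancer cells conditioned the medium for 48 h, and macrophages received 75% CM and 25% fresh medium, whereas control media had stood on a plate without cells. A further 3 groups of 3 libraries served for comparison, namely WT/vehicle with CM of unedited LL2 cells, NRF2 KO/vehicle with CM of LL2 cells that lack NRF2, and KEAP1 KO CM/CDDO-Me with KEAP1 KO CM and the synthetic oleanane triterpenoid CDDO-Me at 100 nM. The groups with CDDO-Me and media, WT CM or NRF2 KO CM entered only the estimate of the spread and the choice of genes tested. Keap1 itself was at 39.5, 40.97 and 39.5 TPM in KEAP1 KO/vehicle BMDMs and at 38.3, 35.8 and 36.1 TPM in media/vehicle BMDMs, which bears on the macrophages and not on the edited cancer cells.

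The deposited values are TPM, each gene's share of all transcripts after correction for transcript length, scaled to a fixed sum, so levels can be set side by side between genes. Depth per library is unknown, since the sum of TPM is by construction almost equal between libraries. Replicate 3 of NRF2 KO/vehicle and replicate 3 of NRF2 KO CM/CDDO-Me stood apart from the other 22 libraries. They listed 15702 and 16299 genes above 0, against 17817 to 18993 in the others, and mitochondrial genes took 9.87% and 4.74% of their TPM, against 1.54% to 3.32%. Neither belongs to the 6 libraries compared, but all 24 libraries share the estimate of spread, so calls are also given without these 2 outlying libraries where a group's count moves by more than 1.5 times or from 0. Across the 13661 genes tested, the correlation of log2 values lay between 0.980 and 0.991 within KEAP1 KO/vehicle, between 0.985 and 0.990 within media/vehicle, and between 0.962 and 0.970 from one group to the other.

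IL-4 and IL-13 act through receptors that share the chain IL-4Rα and activate STAT6, the transcription factor of the program known as alternative activation. In mouse macrophages its products include the secreted protein encoded by Retnla, chitinase-like proteins and lectins such as the mannose receptor, and macrophages of this type are common in tumors. Cholesterol synthesis is controlled by SREBP transcription factors, which SCAP carries to the Golgi when sterols are low, and which induce the enzymes of the mevalonate pathway. LXR receptors respond to high sterol levels and induce transporters that export cholesterol.

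As compared to media/vehicle BMDMs, 1101 of 13661 genes (8.06%) had an adjusted p under 0.05 in KEAP1 KO/vehicle BMDMs. Of these, 665 were higher (4.87%) and 436 were lower (3.19%), and these shares are the background for each gene group below. Differences are on the scale of log2(scaled TPM + 1), which understates the change of genes at low levels, are given with their standard error (SE), and were tested with limma over all genes. Of the genes that passed, 253 (1.85% of those tested) rose and 129 (0.944%) fell by at least 1 on this scale, while the median over all genes was 0.01. Without the outlying libraries, 2850 of 13562 genes (21%) passed, 1711 higher (12.6%) and 1139 lower (8.4%), and they included all 1101. Without KEAP1 KO/vehicle replicate 1 the count was 725, and without media/vehicle replicate 1 it was 705. In scaled TPM, the 3 KEAP1 KO/vehicle libraries lay above all 3 media/vehicle libraries for 2827 genes (20.7%) and below them for 2135 (15.6%). The genes furthest from 0 included products of alternative activation, the ribonuclease gene Rnase2a and chemokines on the higher side, and the fractalkine receptor Cx3cr1 on the lower side.

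**Figure D1:**
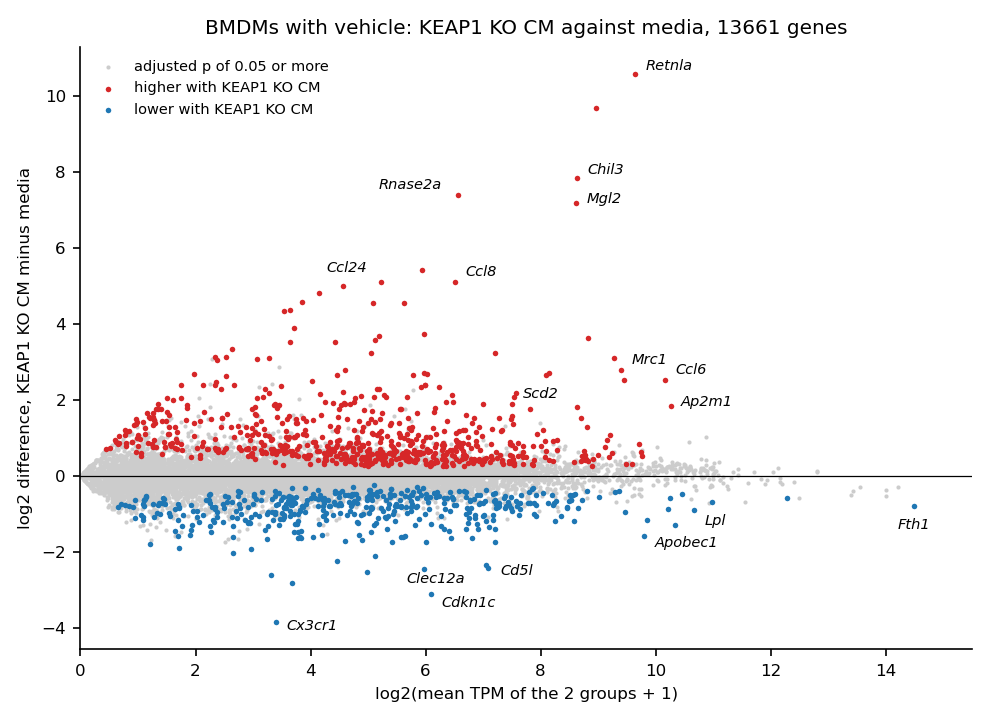
Each point is 1 of the 13661 genes tested, with log2 of the mean TPM of both groups plus 1 on the horizontal axis and the log2 difference of KEAP1 KO/vehicle from media/vehicle on the vertical axis. The 665 genes that passed and were higher are red, the 436 that passed and were lower are blue, and the highest point is Retnla.

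The alternative activation list held 29 genes, of which 27 passed the filter on low values, some of them, such as Retnla, Chil4 and Ccl17, through the groups with CM alone. Of the 27, 20 rose, 0 fell and 7 did not pass, with a median log2 difference of 1.90. Members that entered only through groups with CM could hardly be called as anything but rises. Over the 19 members above 1 TPM in at least 3 of the 6 libraries with control media, a restriction chosen after seeing the data, 12 rose and 0 fell, with a median of 0.99, as against 4.63% higher over all 12540 such genes. The same restriction left 7 rises among 12 CC chemokine genes and 2 among 12 genes of IL-4 and IL-13 signalling, lists described below. Il13ra2, Socs1, Cish, Flt1, Olr1, Cd209a, Ocstamp, Ackr3 and the list members Cdh1, Pdcd1lg2 and Irf4 also entered the test only through other groups than those with control media, so their rises are levels to be read as a description. Summed over the list, the mean level was 1698 TPM in media/vehicle and 7502 TPM in KEAP1 KO/vehicle BMDMs. Retnla, which encodes a secreted protein of the resistin family, was at 1504, 1389.8 and 1883 TPM in KEAP1 KO/vehicle BMDMs and listed at 0 in every media/vehicle library. Chil3, which encodes a chitinase-like lectin, was at 592, 592 and 1196 TPM against 1.09, 3.87 and 2.31 TPM (difference 7.84 ± 0.44, adjusted p = 2.9e-10), with replicate 3 at the highest level. Its near-identical copy Chil4 was at 7.98, 7.99 and 8.26 TPM and listed at 0 in media/vehicle, and reads of these genes may have been split between them.

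Several of these genes encode receptors. Mrc1, the mannose receptor CD206, was at 1173, 1150.1 and 1213 TPM with KEAP1 KO CM and at 157, 164 and 188 TPM in media/vehicle BMDMs, 6.94 times the mean level of media/vehicle and a log2 difference of 2.79 ± 0.23 (SE, adjusted p = 8.9e-08). Mgl2 was at 903, 846 and 578 TPM against 4.27, 5.33 and 3.15 TPM, with replicate 3 the lowest of its group (difference 7.19 ± 0.45, adjusted p = 1.3e-09). Clec10a, which like Mgl2 encodes a galactose-type lectin and shares sequence with it, was at 251, 274 and 271 TPM against 26.4, 27.8 and 27.1 TPM (difference 3.24 ± 0.17, adjusted p = 1.3e-10). All 3 lectin genes were above media/vehicle in every library, and the split of reads between Mgl2 and Clec10a is uncertain. Pdcd1lg2 encodes PD-L2, a ligand of the T cell checkpoint receptor PD-1, and was at 41.3, 30.03 and 64.5 TPM against 0.264, 0.114 and 0.650 TPM (difference 5.01 ± 0.29, adjusted p = 4.6e-10). Cd274, which encodes the other ligand, PD-L1, was at 43.8, 33.8 and 55.6 TPM against 24.7, 22.8 and 24.7 TPM, and although the groups did not overlap it did not pass (adjusted p = 0.093). Of the 22 alternatives run, Cd274 did not pass in 16 either. It passed as higher without the outlying libraries, with no scaling, with array weights and with the replicate block. The same held with only the 2 groups compared and without replicate 3 of all groups. Cdh1 encodes E-cadherin, which alternatively activated macrophages also make, and rose by 2.39 ± 0.12 (SE, adjusted p = 5.2e-11) to between 4.23 and 5.19 TPM.

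Rnase2a, a ribonuclease of the eosinophil-associated family with near-identical copies, was outside the list but showed the same kind of values. Its level was 215, 250.3 and 96.1 TPM after KEAP1 KO CM, and no media/vehicle library listed it above 0. Ear2 of the same family is on the list and rose by 3.68, its reads being uncertain for the same reason. Of the transcription factor genes on the list, Egr2, Irf4 and Klf4 rose, by 0.86, 2.40 and 1.90, and Pparg did not pass. Egr2 lost its call without media/vehicle replicate 1 (log2 difference 0.68). The 7 list members that did not pass were Cd163, F13a1, Il10, Pparg, Clec7a, Stab1 and Fn1, with log2 differences from -0.38 to 0.91. Without the outlying libraries, 21 of the 27 rose and 0 fell.

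**Figure D2:**
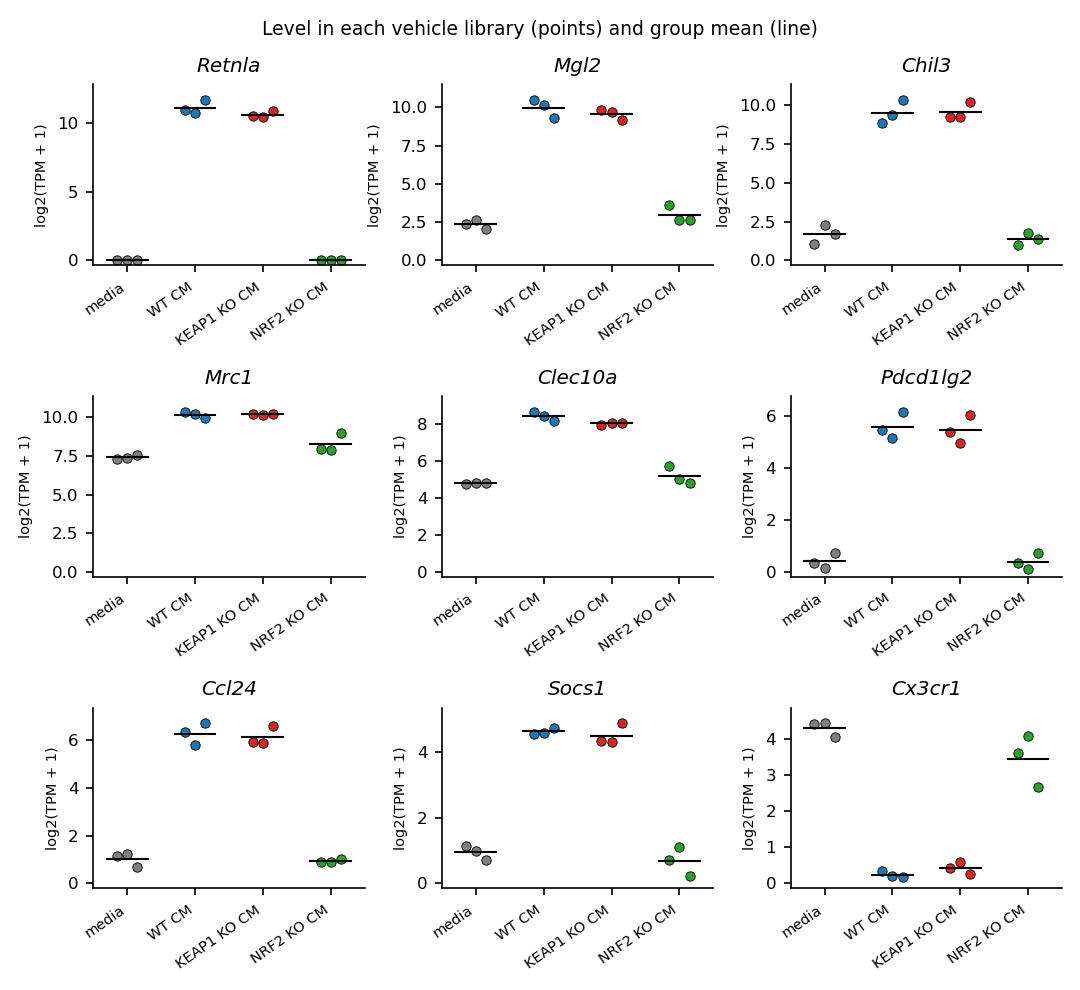
Each panel shows 1 gene as log2(TPM + 1) in the 12 vehicle libraries, grouped by the medium they received, with a point per library and a line at the group mean. KEAP1 KO CM and WT CM sit together for all 9 genes, far above media for the first 8 and far below it for Cx3cr1, while the mean of NRF2 KO CM is nearer to media than to KEAP1 KO CM.

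Upstream of each gene's start, RefSeq windows of 250 bases before to 50 bases after the start on GRCm38.p6 were searched on both strands for the STAT6 motif, TTC and GAA with any 4 bases between them. Of the 29 alternative activation genes, 18 had a window and 4 of these (22.2%) held the motif, Retnla, Clec7a, Ccl17 and Pdcd1lg2. The same letters occurred in 6.74% of the 9987 tested genes with a window, in 7.39% of those that rose and in 4.60% of those that fell. Clec7a, which holds the motif, was among the genes that did not pass. Stretches around the motif are shown for the 3 of these genes that rose, on the plus strand of GRCm39, to which each matched once, with the motif in capitals.
Retnla, chr16:48662807-48662894, just before the gene: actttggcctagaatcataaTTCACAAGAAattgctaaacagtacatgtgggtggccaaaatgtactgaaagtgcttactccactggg
Pdcd1lg2, chr19:29388169-29388318, just before the gene: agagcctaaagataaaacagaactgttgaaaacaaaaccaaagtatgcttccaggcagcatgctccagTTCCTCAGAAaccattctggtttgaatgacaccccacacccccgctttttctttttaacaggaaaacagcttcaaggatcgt
Ccl17, chr8:95536907-95537056, in an intron of the longer annotated transcript: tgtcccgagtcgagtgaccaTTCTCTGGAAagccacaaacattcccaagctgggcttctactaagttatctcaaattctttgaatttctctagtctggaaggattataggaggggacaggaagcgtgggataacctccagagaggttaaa
Each letter match is a description of the window and was not tested for binding. The motif began 145, 82 and 154 bases before the RefSeq start of Retnla, Pdcd1lg2 and Ccl17. In GENCODE on GRCm39, Retnla lies at chr16:48662895-48664824, Pdcd1lg2 at chr19:29388319-29448882 and Ccl17 at chr8:95534358-95538664, all on the plus strand.

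Of the genes that carry or restrain IL-4 and IL-13 signals, 15 of 16 were tested, 5 rose, 1 fell and 9 did not pass, and 3 fell without the outlying libraries. Of the 12 members that passed the filter in libraries with control media, 2 rose and 1 fell. The genes with the larger changes, Il13ra2, Cish and Socs1, encode inhibitors. They entered the test only through other groups, so their rises are a description. Il13ra2, which encodes the IL-13 decoy receptor, was at 25.9, 21.5 and 16.03 TPM with KEAP1 KO CM and at 0, 0.0468 and 0.0244 TPM in media/vehicle BMDMs (difference 4.35 ± 0.19, adjusted p = 7.2e-12). Cish, which encodes a suppressor of cytokine receptors that use STAT5, was at 20.5, 21.6 and 29.2 TPM against 0.774, 0.536 and 0.520 TPM (difference 3.89 ± 0.30, adjusted p = 3.8e-08). Socs1, which encodes an inhibitor of JAK kinases, was at 19.1, 18.6 and 28.2 TPM against 1.20, 0.978 and 0.652 TPM (difference 3.52 ± 0.21, adjusted p = 7.5e-10). These 3 genes went from about 1 TPM or less to between 16.03 and 29.2 TPM. The receptor chain gene Il4ra rose by 1.21 ± 0.12 (SE, adjusted p = 1.5e-06) and the kinase gene Jak2 by 1.12 ± 0.12 (adjusted p = 2.7e-06), whereas Ptpn6, which encodes the phosphatase SHP-1, fell by 0.65. Stat6 itself was at 109, 114 and 112 TPM against 143, 133 and 135 TPM and did not pass (adjusted p = 0.20), nor in 18 of the 22 alternatives run. It passed as lower without the outlying libraries, with array weights, with only the 2 groups compared and without replicate 3 of all groups. The cytokine gene Il4 was at 14.3, 13.2 and 13.5 TPM, below 18.02, 19.3 and 24.6 TPM in media/vehicle BMDMs, and did not pass either.

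Of 20 genes of arginine and polyamine metabolism tested, 4 rose, 0 fell and 16 did not pass, and without the outlying libraries 7 rose and 1 fell. Of the 18 members that passed the filter in libraries with control media, 3 rose and 0 fell. The remaining rise was of a member that entered the test only through other groups, so it is a description. Among those that rose were the arginine transporter genes Slc7a2, at 62.7, 52.1 and 62.6 TPM against 5.22, 5.25 and 5.64 TPM (difference 3.23 ± 0.26, adjusted p = 6.7e-08), and Slc7a1 (difference 0.66 ± 0.15, adjusted p = 0.0087), and Odc1, which encodes the enzyme that starts polyamine synthesis (difference 0.60 ± 0.11, adjusted p = 0.0017). Slc7a1 did not pass without KEAP1 KO/vehicle replicate 1 or 2, at differences of 0.57 and 0.59.

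CC chemokines were the other group with large rises. Of 16 listed, 14 were tested, 9 rose, 2 fell and 3 did not pass, and their summed mean level went from 899 TPM to 4398 TPM. Ccl6 was the most abundant, at 1691, 1429 and 2746 TPM against 279, 338 and 373 TPM, a mean 5.93 times as high (difference 2.52 ± 0.24, adjusted p = 7.2e-07), with replicate 3 the highest. Ccl9, a ligand of the receptor CCR1 like Ccl6, was at 1185, 1137 and 1243 TPM against 197, 181 and 249 TPM (difference 2.52 ± 0.27, adjusted p = 3.2e-06). The 3 libraries of KEAP1 KO/vehicle lay above all media/vehicle libraries for both genes. Ccl8 and Ccl12, which attract monocytes, rose from under 5 TPM to 203, 209 and 115 TPM and to 123, 159 and 75.1 TPM (differences 5.11 ± 0.34 and 5.42 ± 0.42, adjusted p = 4.4e-09 and 3.6e-08). Ccl24, an eosinophil attractant, was at 60.3, 58.5 and 96.3 TPM against 1.23, 1.34 and 0.601 TPM (difference 5.10 ± 0.22, adjusted p = 7.2e-12). Ccl17 stayed low and was listed at 0 in media/vehicle, with 0.910, 3.63 and 2.81 TPM with KEAP1 KO CM, so this ligand of CCR4 was detected in every library of one group and in no library of the other. The 2 chemokine genes that fell were Ccl3 (difference -1.39 ± 0.24, adjusted p = 0.00052) and Ccl4 (difference -1.60 ± 0.39, adjusted p = 0.013), which attract monocytes and T cells. Ccl4 did not pass without KEAP1 KO/vehicle replicate 2 or media/vehicle replicate 1 or 2, at differences of -1.55, -1.48 and -1.50. Ccl17 lost its call without media/vehicle replicate 1, 2 or 3 (log2 difference 1.65).

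Of 11 CXC chemokine genes tested, 2 rose and 2 fell, or 2 and 1 of the 7 that passed the filter in libraries with control media, without Cxcl10. Cxcl5, a neutrophil attractant, rose to 39.3, 38.1 and 19.8 TPM from 8.53, 5.88 and 8.04 TPM, with replicate 3 the lowest of its group (difference 1.93 ± 0.49, adjusted p = 0.017). Pf4 rose by 1.37 ± 0.23 (SE, adjusted p = 0.00040). Cxcl10, an interferon-induced T cell attractant, fell by 1.10 to under 0.3 TPM (adjusted p = 0.035), and Cxcl16 fell by 0.84 (adjusted p = 0.0095). Among 13 chemokine receptor genes, 2 rose and 2 fell. Ackr3, which rose, entered the test only through other groups than those with control media. Of the 11 that passed the filter in libraries with control media, 1 rose and 2 fell. The receptor Cx3cr1 had the largest fall of the named genes, at 0.338, 0.495 and 0.203 TPM against 20.3, 20.4 and 15.6 TPM (difference -3.83 ± 0.37, adjusted p = 8.0e-07). Ccr1, which encodes the receptor of the Ccl6 and Ccl9 products, rose by 2.08 ± 0.53 (SE, adjusted p = 0.017), and Ccrl2 fell by 1.55. Of these genes, Cxcl5 did not pass without KEAP1 KO/vehicle replicate 1 or 2 or media/vehicle replicate 2 (differences 1.76, 1.80 and 1.77), and Ccr1 did not pass without KEAP1 KO/vehicle replicate 3 or media/vehicle replicate 1 or 2 (differences 1.84, 1.79 and 1.97). Cxcl16 did not pass without KEAP1 KO/vehicle replicate 2 (difference -0.66), and Cxcl10 did not pass without any 1 of the KEAP1 KO/vehicle libraries or media/vehicle replicate 1 or 3 (differences from -1.15 to -0.99).

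All 20 genes of the sterol synthesis list were tested, and 16 rose, 0 fell and 4 did not pass, with a median log2 difference of 0.96. The genes that rose span the pathway from acetyl-CoA to cholesterol. Acat2, whose product makes acetoacetyl-CoA, was at 58.2, 65.7 and 45.9 TPM against 17.5, 17.5 and 16.1 TPM (difference 1.66 ± 0.18, adjusted p = 2.7e-06). Idi1 and Fdps, which make the isoprenoid units, were at 102, 107 and 86.4 TPM and at 259, 294 and 235 TPM, against 36.9, 42.4 and 40.4 TPM and 85.02, 95.01 and 95.4 TPM (differences 1.28 ± 0.15 and 1.50 ± 0.17, adjusted p = 1.1e-05 and 3.8e-06). Sqle, which opens the sterol branch together with Fdft1, was at 71.96, 77.1 and 73.9 TPM against 36.3, 37.5 and 39.01 TPM (difference 0.96 ± 0.13, adjusted p = 7.2e-05). The 4 genes that did not pass, Mvk, Tm7sf2, Sc5d and Ebp, had differences of 0.65, 1.18, 0.61 and 0.29. In scaled TPM the KEAP1 KO/vehicle libraries of all 20 genes lay above every media/vehicle library, and without the outlying libraries all 20 passed. Without replicate 1 or replicate 2 of all 8 groups, which leaves 16 libraries, 6 and 9 of the 20 rose. The summed mean level of the list was 716 TPM in media/vehicle and 1469 TPM in KEAP1 KO/vehicle BMDMs.

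Genes that sense and take up sterols changed in part. Of 14 tested, 3 rose, 1 fell and 10 did not pass, and without the outlying libraries 5 rose and 3 fell. Insig1, which retains SREBP in the endoplasmic reticulum, rose by 0.94 ± 0.13 (SE, adjusted p = 6.6e-05), and the sterol carrier gene Stard4 by 0.99 ± 0.11 (adjusted p = 3.7e-06). Lipa, which encodes lysosomal acid lipase and frees cholesterol from its esters, fell by 0.86 (adjusted p = 3.0e-05). Of the regulators, Srebf1, which belongs to the fatty acid synthesis list below, rose by 0.43 ± 0.13 (SE, adjusted p = 0.042). Srebf2 was at 94.9, 103 and 105 TPM against 83.3, 71.5 and 78.99 TPM, and Scap at 35.3, 34.9 and 33.8 TPM against 40.1, 37.8 and 42.4 TPM. Although Srebf2 lay above and Scap below every media/vehicle library, neither passed (adjusted p = 0.0502 and 0.52). Srebf1 did not pass without any 1 of the KEAP1 KO/vehicle libraries or media/vehicle replicate 1 or 2, at differences from 0.38 to 0.45.

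In the fatty acid synthesis list, 16 of 18 genes were tested, 9 rose, 0 fell and 7 did not pass, with a median of 0.65. The stearoyl-CoA desaturase genes Scd2 and Scd1 were among those that rose. Scd2 was at 295, 359 and 202 TPM against 77.6, 84.04 and 63.6 TPM, a mean 3.80 times as high (difference 1.88 ± 0.19, adjusted p = 1.5e-06). Scd1 was at 54.9, 68.7 and 27.99 TPM against 20.8, 17.8 and 13.1 TPM (difference 1.43 ± 0.26, adjusted p = 0.0013). Replicate 3 was the lowest of the KEAP1 KO/vehicle libraries for both and still lay above all media/vehicle libraries. Acly, which makes cytosolic acetyl-CoA, and the desaturase gene Fads2 rose by 0.73 and 1.51 (adjusted p = 0.00081 and 0.0021).

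Of the LXR targets and efflux genes, most did not pass and those that did were mostly lower. Of 15 tested, 1 rose, 3 fell and 11 did not pass, with a median of -0.67, and without the outlying libraries 2 rose and 8 fell. Abca1, the cholesterol efflux transporter, was at 23.5, 22.97 and 20.99 TPM against 42.4, 42.3 and 39.8 TPM (difference -0.85 ± 0.09, adjusted p = 2.1e-06). Cd5l, a secreted scavenger-family protein, was at 43.3, 53.1 and 29.3 TPM against 251, 259 and 171 TPM (difference -2.42 ± 0.37, adjusted p = 0.00020), and Cyp27a1, which oxidises cholesterol, fell by 0.99. Lpcat3, which remodels phospholipids, was the gene that rose (difference 0.60 ± 0.09, adjusted p = 0.00020). Among 20 genes of lipid uptake and storage, Olr1 rose, Lpl and Fabp4 fell, and 17 did not pass, while without the outlying libraries 1 rose and 7 fell. Olr1 was tested only because of its level outside control media, and none of the other 19 rose. Lpl, which encodes lipoprotein lipase, was at 1198, 1393 and 851 TPM against 1981, 2160.3 and 2171 TPM, so this abundant transcript fell without overlap between the groups (difference -0.90 ± 0.16, adjusted p = 0.00095). Calls were lost when single replicates were left out for Cyp27a1 (without KEAP1 KO/vehicle 2 or media/vehicle 3, at -0.86 to -0.79), Olr1 (without KEAP1 KO/vehicle 2 or 3 or media/vehicle 1 or 2, at 0.81 to 0.93) and Fabp4 (without KEAP1 KO/vehicle 3 or media/vehicle 1 or 2, at -0.63 to -0.51).

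**Figure D3:**
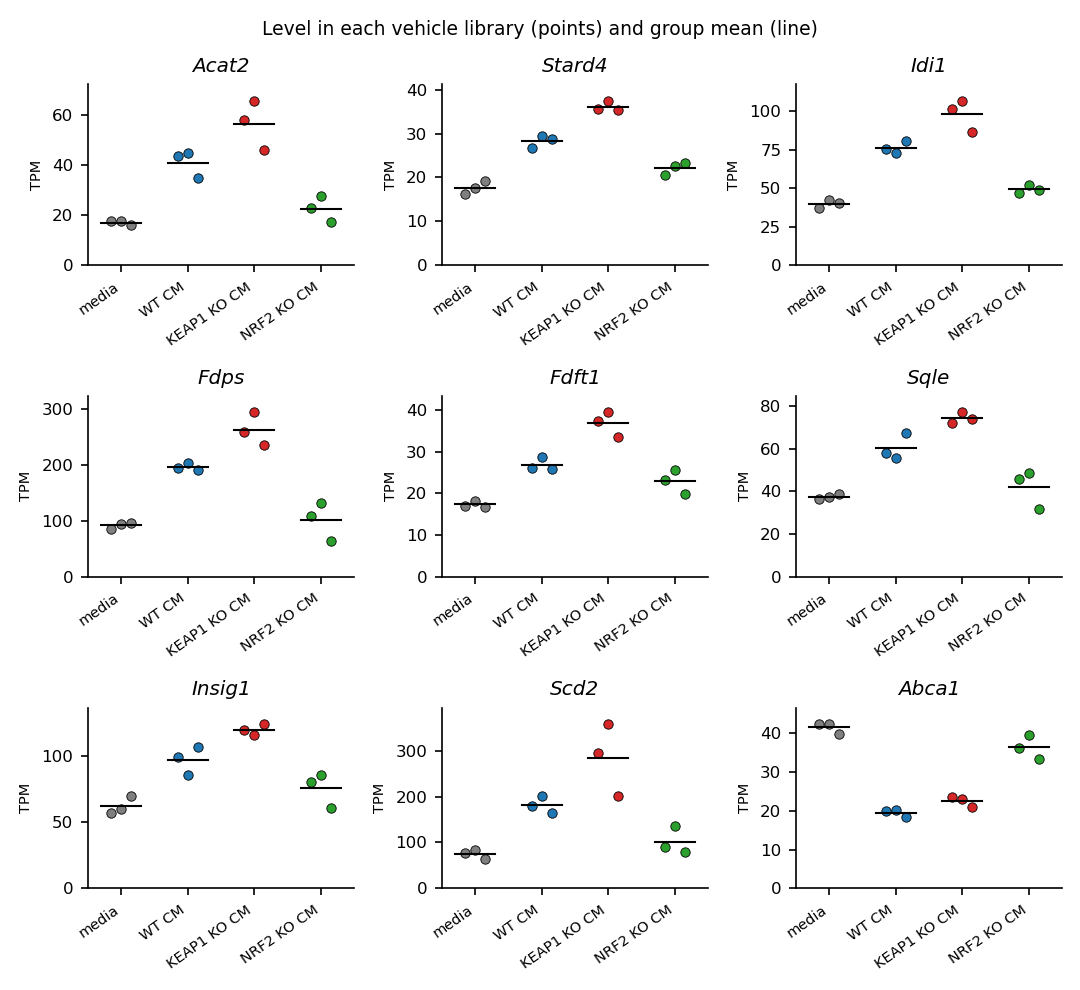
Each panel shows 1 lipid gene as TPM from 0 in the 12 vehicle libraries, grouped by the medium they received, with a point per library and a line at the group mean. The KEAP1 KO CM points lie above the media points for the first 8 genes and below them for Abca1, and the mean of WT CM lies between media and KEAP1 KO CM for those 8 genes.

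The sterol regulatory element TCACNCCAC was found in 1 of the 15 sterol synthesis genes with a promoter window, Hmgcs1, and in 1.33% of the 9987 tested genes with a window. Hmgcs1, which encodes an early enzyme of the pathway, was at 111, 119 and 114 TPM against 60.1, 67.97 and 74.3 TPM (difference 0.76 ± 0.13, adjusted p = 0.00070) and is shown because its window holds the element, in capitals, beginning 137 bases before the RefSeq start.
Hmgcs1, chr13:120151730-120151879 of GRCm39, plus strand, before the gene: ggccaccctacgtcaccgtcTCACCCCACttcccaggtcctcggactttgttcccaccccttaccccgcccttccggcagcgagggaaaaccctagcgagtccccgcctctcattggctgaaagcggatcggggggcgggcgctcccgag
The absence of these letters from the other 14 windows says only that they are not in this stretch.

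Among receptors and mediators of inflammation, most genes did not pass, with or without the outlying libraries. Of 20 Toll-like receptor and adaptor genes, 1 rose and 3 fell, or 2 and 4 without the outlying libraries. Tlr4, the endotoxin receptor, was at 87.7, 89.6 and 90.96 TPM against 43.1, 42.97 and 44.8 TPM (difference 1.02 ± 0.13, adjusted p = 3.1e-05), whereas Tlr2, a receptor of bacterial lipoproteins, was at 13.8, 12.1 and 14.5 TPM against 40.1, 39.97 and 45.2 TPM (difference -1.56 ± 0.27, adjusted p = 0.00055). Tlr13 and Tlr9 fell by 1.27 and 1.08. Of 17 cytokine genes, 0 rose and 2 fell, Tnf, at 3.86, 3.85 and 2.94 TPM against 12.9, 13.9 and 13.4 TPM (difference -1.66 ± 0.25, adjusted p = 0.00015), and Inhba, which fell by 0.82 (adjusted p = 0.044) and did not pass without any 1 of the 6 libraries (differences from -0.85 to -0.80). Il6 was under 0.6 TPM in each of the 6 libraries and did not pass. Of 19 NF-kB genes, 0 rose and 2 fell, Nfkbiz by 1.30 and Tnip1 by 0.77, and without the outlying libraries 1 rose and 3 fell. The type I interferon list had 4 rises and 1 fall among 27 genes, Stat2 rising by 0.72 and Ifit3 falling by 1.08, and the interferon gamma list 2 and 2 among 26. These became 6 and 2 and 4 and 2 without the outlying libraries. Of the 19 interferon gamma members that passed the filter in libraries with control media, 1 rose and 1 fell. Socs1 and Cxcl10, which are on that list, entered the test only through other groups. Calls were lost when single replicates were left out for Tlr9 (without KEAP1 KO/vehicle 2 or media/vehicle 1, at -0.98 to -0.85) and Ifit3 (without KEAP1 KO/vehicle 1, 2 or 3 or media/vehicle 1 or 3, at -1.13 to -0.88).

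Surface molecules that macrophages show to T cells changed in both directions. Of 18 costimulatory and checkpoint genes, 3 rose and 5 fell, or 5 and 5 without the outlying libraries. Cd40, the receptor for T cell help, was at 18.02, 18.1 and 14.6 TPM against 5.50, 4.95 and 5.42 TPM (difference 1.50 ± 0.26, adjusted p = 0.00078), while Icosl fell by 0.84 and Siglece, an inhibitory sialic acid receptor, by 1.59. Of 14 MHC class II genes tested, 0 passed, with a median of -0.12, and without the outlying libraries 1 rose and 3 fell. H2-Aa, a class II chain gene, was at 153, 140.1 and 233 TPM against 272, 287 and 283 TPM, and the difference of -0.71 ± 0.24 did not pass (adjusted p = 0.082). It did pass without the outlying libraries (adjusted p = 0.045 with limma), with array weights, with the replicate block, with only the 2 groups compared and without replicate 3 of KEAP1 KO/vehicle or of all groups, 6 of the 22 alternatives run. Of 18 MHC class I genes, Pdia3 rose and 17 did not pass, while 5 rose without the outlying libraries. Pdia3 lost its call without KEAP1 KO/vehicle replicate 1 or 2 or media/vehicle replicate 1 or 3 (log2 difference 0.37 to 0.44). Of 7 Fc receptor genes, 2 rose and 2 fell, or 4 and 2 without the outlying libraries. Fcgr2b, the inhibitory Fc receptor, was at 1082, 857 and 1377 TPM against 104, 117 and 164 TPM (difference 3.10 ± 0.36, adjusted p = 8.1e-06), and Fcgr1, the high-affinity receptor, fell by 0.86 (adjusted p = 0.0016). The C-type lectin receptor gene Clec12a was at 52.1, 51.7 and 28.5 TPM against 225, 224 and 206 TPM (difference -2.33 ± 0.26, adjusted p = 4.6e-06), opposite to Mrc1, Mgl2 and Clec10a in the same list of 21, where 6 rose and 2 fell, or 6 and 4 without the outlying libraries.

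Genes of iron import, export and storage were among those that passed. Of 19 heme and iron genes, 1 rose and 5 fell, or 3 and 7 without the outlying libraries. Tfrc, the transferrin receptor, was at 210.4, 220.4 and 242 TPM against 82.1, 99.6 and 108 TPM (difference 1.21 ± 0.17, adjusted p = 7.9e-05). Slc40a1, the iron exporter ferroportin, was at 27.97, 18.8 and 43.02 TPM against 100.3, 93.8 and 94.7 TPM (difference -1.72 ± 0.26, adjusted p = 0.00014). Fth1, the heavy chain of the iron store ferritin and an abundant transcript, was at 17076, 16157 and 17583 TPM against 31230.3, 28479.9 and 27673 TPM (difference -0.78 ± 0.17, adjusted p = 0.0066). The importer gene was thus higher and the exporter and storage genes lower in every library, and Slc11a1 and Ncoa4, which release iron from vesicles and from ferritin, fell by 1.04 and 0.66. Ncoa4 lost its call without KEAP1 KO/vehicle replicate 2 (log2 difference -0.58).

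NRF2 and its targets were examined because KEAP1 restrains NRF2, although here KEAP1 was deleted in the cancer cells only. Of 27 genes tested, 0 rose, 5 fell and 22 did not pass, with a median of -0.28. The 5 were Fth1, Cat, Gstm1, Srxn1 and Prdx1, the last at 1469, 1655 and 1541 TPM against 2077, 2534 and 2876 TPM (difference -0.67 ± 0.16, adjusted p = 0.0089), which did not pass without media/vehicle replicate 3 (difference -0.55). Nqo1, a classical target, was at 3.08, 2.60 and 5.16 TPM against 2.63, 2.51 and 4.96 TPM and did not pass. The antioxidant response element TGACNNNGC was in 10 of the 23 windows of this list (43.5%), in 17.1% of tested genes with a window, in 19.2% of those that rose and in 20.2% of those that fell. Without the outlying libraries, 1 of the 27 rose and 11 fell. Calls were lost when single replicates were left out for Cat (without KEAP1 KO/vehicle 2 or media/vehicle 1, at -0.73), Gstm1 (without KEAP1 KO/vehicle 2 or media/vehicle 1, at -0.65 to -0.62) and Srxn1 (without KEAP1 KO/vehicle 1 or 2 or media/vehicle 2 or 3, at -0.75 to -0.57).

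Most cell cycle and metabolic genes did not pass with all 24 libraries. Of 30 cell cycle genes, 5 rose (Tyms, Ccne1, Mcm3, Rrm1 and Mcm4, by 0.48 to 0.76) and 0 fell, with a median of 0.65, and without the outlying libraries 24 rose. Of 24 glycolysis genes 2 rose and 1 fell, of 24 respiratory chain genes 1 rose, and of 20 genes of the tricarboxylic acid cycle 1 rose, while without those libraries the rises were 10, 10 and 10, and 3 glycolysis genes fell. Under no scaling the cell cycle rises were 3. Calls were lost when single replicates were left out for Ccne1 (without KEAP1 KO/vehicle 1 or 2 or media/vehicle 1 or 2, at 0.63 to 0.73), Mcm3 (without KEAP1 KO/vehicle 1 or 2 or media/vehicle 1, 2 or 3, at 0.56 to 0.67), Mcm4 (without KEAP1 KO/vehicle 1 or 2 or media/vehicle 1, 2 or 3, at 0.36 to 0.50), Rrm1 (without KEAP1 KO/vehicle 1 or 2 or media/vehicle 1 or 2, at 0.48 to 0.57) and Tyms (without KEAP1 KO/vehicle 1 or 2 or media/vehicle 1, 2 or 3, at 0.68 to 0.81). Hypoxia genes had 0 rises and 1 fall among 21, and integrated stress genes 2 rises and 0 falls among 23, while without the outlying libraries there was 1 hypoxia rise and there were 5 integrated stress rises. Of the matrix and vessel lists, 2 of 25 metalloproteinase genes rose and 2 fell, or 7 and 2 without the outlying libraries, and 3 of 25 angiogenic genes rose and 5 fell, Flt1 rising by 2.40 ± 0.27 (SE, adjusted p = 4.7e-06) to between 5.56 and 7.28 TPM, Pdgfb falling by 1.69, and Vegfa not passing. Pdgfb lost its call without KEAP1 KO/vehicle replicate 1 or 3 or media/vehicle replicate 1 or 2 (log2 difference -1.73 to -1.59). In the prostaglandin list 3 of 16 rose and 2 fell, or 6 and 2 without the outlying libraries, with Ptgs1, the gene of cyclooxygenase 1, at 107, 93.2 and 115 TPM against 18.8, 13.3 and 27.4 TPM (difference 2.40 ± 0.29, adjusted p = 1.4e-05).

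Uptake, complement, lysosomal and oxidase genes passed in small numbers. Of 23 scavenger and efferocytosis genes, 2 rose and 5 fell, among them Itgb3, which rose by 1.72, and Mfge8 and Lrp1, which fell by 1.15 and 1.05. Calls were lost when single replicates were left out for Mfge8 (without KEAP1 KO/vehicle 1, 2 or 3 or media/vehicle 1 or 2, at -1.19 to -1.08) and Lrp1 (without KEAP1 KO/vehicle 1 or 3 or media/vehicle 1, 2 or 3, at -1.12 to -0.89). Of 20 complement genes, C3 and Cfp rose by 2.11 and 1.54, and C3ar1 fell by 0.49. C3ar1 lost its call without KEAP1 KO/vehicle replicate 3 or media/vehicle replicate 2 or 3 (log2 difference -0.49 to -0.44). Of 19 cathepsin and lysosome genes, the protease genes Ctsc and Ctsh passed, the first higher by 0.79 and the second lower (difference -0.83). Of 8 phagocyte NADPH oxidase genes, Cybb, the catalytic subunit, fell by 1.00 (adjusted p = 0.0019). Without the outlying libraries, 2 of the cathepsin and lysosome genes rose and 4 fell, and 3 oxidase genes fell.

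**Figure D4:**
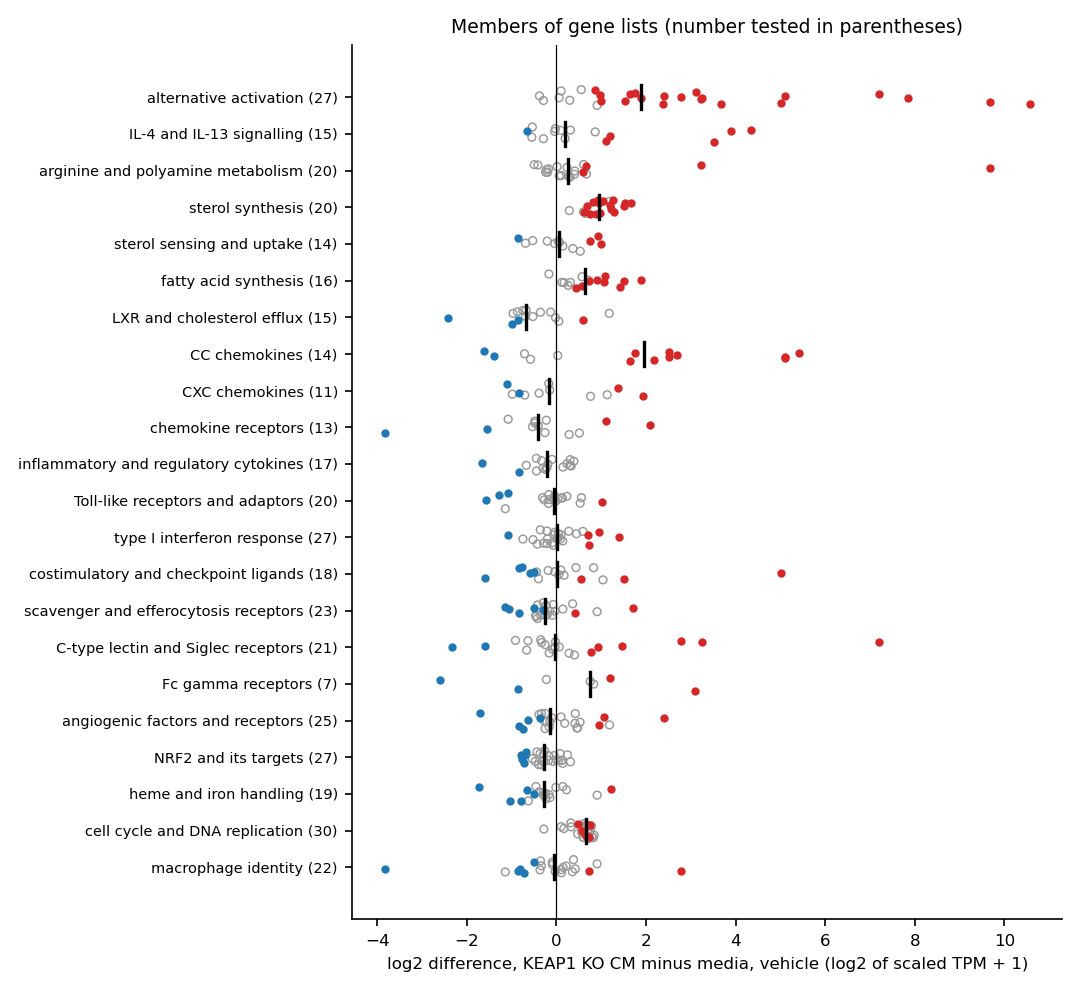
Each point is a tested member of a gene list, placed by its log2 difference of KEAP1 KO/vehicle from media/vehicle, with lists as rows and the number tested in parentheses. Filled red points rose, filled blue points fell, open points did not pass, and the black tick is the list's median, which is at 1.90 for alternative activation and 0.96 for sterol synthesis.

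Outside the lists, the genes with the largest changes had varied functions. Scn3a, a sodium channel subunit, was at 27.2, 26.3 and 46.3 TPM against 0.0586, 0.307 and 0.0381 TPM (difference 4.82 ± 0.22, adjusted p = 7.2e-12), and Tmem26 at 69.2, 56.9 and 65.3 TPM against 1.97, 1.55 and 1.64 TPM (difference 4.55 ± 0.12, adjusted p = 1.5e-15). Scn3a was under 1 TPM in every media/vehicle library, so it could hardly be called as anything but a rise, and its values are a description. Tarm1, Serpinb1a and Cldn11 also rose by more than 4. Over the alternatives the differences of Tarm1 and Cldn11 ranged from 3.66 to 7.48 and from 3.45 to 7.28, so the sizes of these rises depended on the setting. The rises of Tarm1 and Cldn11 are therefore, as for Scn3a, to be read as a description. Ap2m1, a subunit of the clathrin adaptor, was already abundant and was at 1799, 1824 and 2133 TPM against 516, 532 and 557 TPM (difference 1.84 ± 0.10, adjusted p = 2.9e-10). Of the genes that fell, Cdkn1c, an inhibitor of cyclin-dependent kinases, was at 12.2, 15.2 and 9.11 TPM against 165, 148 and 55.3 TPM, with media/vehicle replicate 3 well below the other 2 (difference -3.10 ± 0.30, adjusted p = 7.2e-07). Adra1a and Fcrl1 fell by 2.82 and 2.59 and Dio2, which activates thyroid hormone, by 2.23. Among abundant transcripts, Mpeg1, which encodes the pore-forming protein perforin-2, was at 746, 612 and 912 TPM against 1819, 1733 and 1929 TPM (difference -1.29 ± 0.20, adjusted p = 0.00022), and Apobec1, an mRNA editing enzyme, at 487, 465 and 386 TPM against 1327, 1325 and 1347 TPM (difference -1.58 ± 0.16, adjusted p = 1.3e-06). These falls were without overlap between the groups.

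The label of macrophages was checked against 22 identity genes. Csf1r, the M-CSF receptor, was at 889, 772 and 1098 TPM against 810.4, 727 and 936 TPM and Adgre1, which encodes F4/80, at 899, 815 and 812 TPM against 667, 674 and 598 TPM, so both defining markers were abundant in all 6 libraries and neither passed. Of the 22, 2 rose and 5 fell, or 5 and 8 without the outlying libraries. In bulk RNA, fewer cells of a type and less RNA per cell cannot be told apart. The 14 lists of markers of other cell types follow. Fibroblast markers were present in both groups, with a summed level of 2968, 3303 and 2025 TPM in media/vehicle and 2621, 3259 and 1735 TPM in KEAP1 KO/vehicle libraries, Col1a2 the most abundant, and 0 of 18 passed. Both groups had their lowest fibroblast level in replicate 3.

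Epithelial and carcinoma markers summed to 3.02, 2.16 and 2.22 TPM in media/vehicle and 10.2, 9.39 and 9.92 TPM in KEAP1 KO/vehicle libraries. Of the 12, Cdh1 and Krt19 were tested and Cdh1, which entered only through groups without control media, rose. Esrp1 was listed at 0 in all 6 libraries and 8 were under 1 TPM in all 6. Krt18 and Krt8, which were not tested, were listed at 0 in media/vehicle libraries. In KEAP1 KO/vehicle libraries their means were 0.80 and 0.35 TPM, with highest values of 1.70 and 1.01 TPM. Cldn7 had means of 0.029 TPM in media/vehicle and 0.46 TPM in KEAP1 KO/vehicle libraries. Epcam, Sftpc, Sftpb and Nkx2-1 were at 0 in KEAP1 KO/vehicle and at means up to 0.14 TPM in media/vehicle libraries. Dendritic cell markers summed to 11.8, 12.1 and 12.7 TPM against 49.9, 58.6 and 46.9 TPM, with Batf3 the most abundant, and of 6 tested Batf3, Cd209a and Kmo rose, although only 2 of the 6 passed the filter in libraries with control media, and Cd209a did not. The defining markers Xcr1 and Clec9a were under 0.3 TPM in each of the 6 libraries. Monocyte markers summed to 64.1, 67.6 and 56.8 TPM against 628.4, 637 and 1222 TPM, and of 10 tested Chil3 rose and Cx3cr1 fell. Chil3 was the most abundant in KEAP1 KO/vehicle but lay below Cx3cr1 in media/vehicle. Megakaryocyte markers summed to 89.6, 112 and 137 TPM against 217, 207 and 409 TPM, with Pf4 the most abundant and the 1 of 5 tested that rose. Endothelial markers summed to 66.4, 67.2 and 76.3 TPM against 86.0, 88.0 and 129.5 TPM, with Vwf the most abundant, and of 9 tested Pecam1 rose and Kdr fell. Kdr lost its call without KEAP1 KO/vehicle replicate 2 or 3 or media/vehicle replicate 1 or 2 (log2 difference -0.85 to -0.69).

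Of the lists that were lower in sum, T and NK cell markers went from 16.4, 15.5 and 13.7 TPM to 7.11, 8.46 and 8.63 TPM, with Cd4 the most abundant and the 1 of 4 tested that fell. Mast cell and basophil markers went from 27.0, 29.4 and 31.8 TPM to 19.9, 19.6 and 17.8 TPM, with Il4 the most abundant, Kit the 1 of 5 tested that fell, and Tpsab1, Tpsb2, Fcer1a and Prss34 listed at 0 in all 6 libraries. Adipocyte markers went from 412, 464 and 258 TPM to 265, 264 and 166 TPM, with Fabp4 the most abundant and the 1 of 2 tested that fell. Of 8 osteoclast genes tested, Ocstamp, which did not pass the filter in libraries with control media, rose and Tnfrsf11a fell, with Atp6v0d2 the most abundant, or 2 and 2 without the outlying libraries. None of the tested neutrophil (8), eosinophil (2), B and plasma cell (5) and erythroid (1) markers passed, and their most abundant genes were Csf3r, Ccr3, Ighm and Epor. Without the outlying libraries 1 neutrophil and 1 adipocyte gene rose and 1 eosinophil, 1 B and plasma cell and 1 further monocyte gene fell. Calls were lost when single replicates were left out for Kit (without KEAP1 KO/vehicle 1 or media/vehicle 2, at -1.32 to -1.23) and Tnfrsf11a (without KEAP1 KO/vehicle 2 or media/vehicle 3, at -0.45 to -0.43). The part of these lists in the results was not tested.

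The same genes were then set against BMDMs with WT CM, to ask what the loss of KEAP1 in the cancer cells adds. Between KEAP1 KO/vehicle and WT/vehicle, 0 of 13661 genes (0%) passed with limma, and 350 were at an unadjusted p under 0.05, or 969 without the outlying libraries and 740 with the replicate block. Blocking on the replicate number gave 2 genes, Ankdd1a (difference -1.001, adjusted p = 0.048) and Dpep2 (difference -0.45, adjusted p = 0.048), both lower with KEAP1 KO CM, and without WT/vehicle replicate 3 there was 1 gene. Without replicate 3 of all groups there were 8, of which 7 were higher and 1 was lower with KEAP1 KO CM. A p that misses the threshold does not show that the groups are alike, so 95% intervals are given, each for 1 gene and not adjusted for the number of genes. Over the 1101 genes that differed from media/vehicle, the median absolute difference from WT/vehicle was 0.124, and the 95% interval lay within 1 of 0 on the log2 scale for 1015 of them (92.2%), or for 1047 (95.1%) with the replicate block. Of the 1101, 382 had changed from media/vehicle by at least 1. For the rest, an interval within 1 of 0 could hold a loss of the whole change, so these shares do not show that the groups are alike. For Retnla the interval was -0.94 to -0.22, for Mrc1 -0.54 to 0.43 and for Ccl6 -0.45 to 0.57. Media/vehicle libraries are shared by both CM comparisons, and WT/vehicle against media/vehicle gave 988 genes (7.23%), 599 higher (4.38%) and 389 lower (2.85%), or 486 and 523 without scaling between libraries and 1743 in all with the block.

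Sterol synthesis genes were all on the higher side of this direct comparison. In all 20 the difference from WT/vehicle was above 0, with a median of 0.29 against -0.00 over all genes, also 20 of 20 with RLE scaling and with no scaling. Of all 13661 genes 6696 lay above WT/vehicle, or 9114 with no scaling, where the median of all genes was 0.06. In 14 of 20 the scaled TPM of the KEAP1 KO/vehicle libraries lay above every WT/vehicle library, as against 6.36% of all genes tested, and in 0 below, as against 5.94%. With limma 0 of the 20 passed, and 4 had an unadjusted p under 0.05, whereas with array weights, which rest on the spread of each library, 13 of the 20 and 975 of all genes passed. With the replicate block 0 of the 20 passed and 6 had an unadjusted p under 0.05. Lists lay on both sides of 0 in this comparison. Alternative activation genes were above WT/vehicle in 9 of 27, with a median of -0.12. Fatty acid synthesis genes were above WT/vehicle in 14 of 16, with a median of 0.32. Fibroblast markers were above WT/vehicle in 18 of 18 genes, with a median of 0.41, 3 genes without overlap and summed levels of 2621, 3259 and 1735 TPM against 1761, 2425 and 1218 TPM after WT CM. Cell cycle genes were above it in 28 of 30, with a median of 0.38 and 9 genes without overlap. Of the epithelial and carcinoma markers, the 2 tested lay above WT/vehicle without overlap, though neither passed. The summed levels of that list were 10.2, 9.39 and 9.92 TPM against 5.31, 6.21 and 5.37 TPM after WT CM. On the lower side, interferon gamma genes were above WT/vehicle in 2 of 26 (median -0.18), MHC class II genes in 2 of 14 (median -0.26, 4 with an unadjusted p under 0.05) and cathepsin and lysosome genes in 1 of 19 (median -0.15). The part of these lists in the sterol values was not tested. Fdft1 was at 37.3, 39.4 and 33.6 TPM after KEAP1 KO CM and at 26.1, 28.6 and 25.8 TPM after WT CM (interval 0.12 to 0.62, or 0.17 to 0.58 with the block). Scd2 was at 180.1, 202 and 164 TPM with WT CM (interval 0.14 to 0.95). Retnla was at 1990.0, 1753 and 3262 TPM, of which replicate 2 lay below the highest KEAP1 KO/vehicle library. Il13ra2 was at 13.7, 15.97 and 7.39 TPM with WT CM (interval 0.30 to 1.11). The genes with the smallest unadjusted p were, above WT/vehicle, Fosl1 (interval 0.52 to 1.35), Slco2a1 (0.47 to 1.28), Slc38a4, Trim59 and Car3, and, below it, Ankdd1a (-1.48 to -0.53), Slamf8 (-1.22 to -0.41), Emc4, Atf3 and Pacc1. Fosl1, a subunit of the transcription factor AP-1, was at 12.1, 11.3 and 7.87 TPM after KEAP1 KO CM, at 5.23, 3.73 and 5.11 TPM after WT CM and at 10.00, 10.5 and 10.7 TPM with media, so the KEAP1 KO/vehicle level overlapped that of media/vehicle.

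Against NRF2 KO/vehicle BMDMs, 1235 genes (9.04%) passed, of which 843 (6.17%) had their higher level and 392 (2.87%) their lower level after KEAP1 KO CM. Without replicate 3 of NRF2 KO/vehicle 997 passed, and without both libraries that stood apart 1789, while without KEAP1 KO/vehicle replicate 1 or 2 the counts were 750 and 823, and without NRF2 KO/vehicle replicate 1 or 2 they were 1982 and 1953. Retnla, Rnase2a and Chil4 were listed at 0 in all 3 NRF2 KO/vehicle libraries. Mrc1 was at 251, 238 and 500.1 TPM with NRF2 KO CM (difference 1.92 ± 0.23, adjusted p = 1.6e-05) and Cx3cr1 at 11.1, 15.9 and 5.36 TPM (difference -2.99 ± 0.37, adjusted p = 2.4e-05). For Mrc1 and Cx3cr1 the NRF2 KO/vehicle library with few genes lay nearest to KEAP1 KO/vehicle. Tfrc was at 60.5, 82.2 and 54.6 TPM (difference 1.77 ± 0.17, adjusted p = 7.7e-07). NRF2 KO/vehicle against media/vehicle, which shares the control libraries, gave 1 gene (0.00732%), Nxpe5, named after its values were seen, with 1650 genes at an unadjusted p under 0.05, or 469 without NRF2 KO/vehicle replicate 3, 3828 and 3831 without replicate 1 or 2, and 762 without the outlying libraries.

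**Figure D5:**
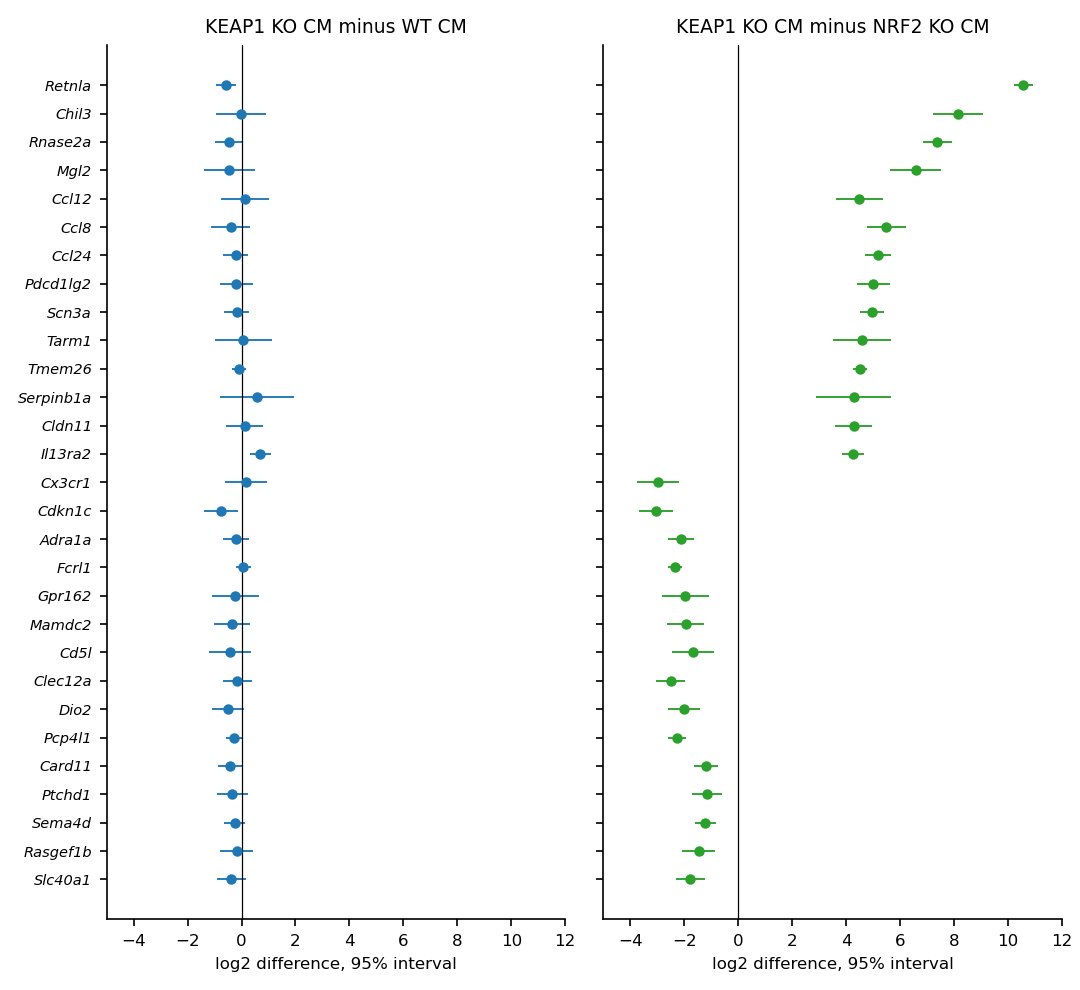
For 29 genes among those with the largest rise or fall from media, the log2 difference of KEAP1 KO CM from WT CM (left) and from NRF2 KO CM (right) is shown with its 95% interval, all with vehicle. Points on the left lie between -0.76 and 0.70, and points on the right keep the direction of the difference from media, from 10.56 for Retnla to -3.04 for Cdkn1c.

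With CDDO-Me added to KEAP1 KO CM, the levels of Retnla, Mrc1 and Idi1 were lower. In KEAP1 KO CM/CDDO-Me against KEAP1 KO/vehicle BMDMs, 3932 genes (28.8%) passed, 1973 higher (14.4%) and 1959 lower (14.3%), or 1563 and 2950 without scaling. Retnla was listed at 0 in all 3 libraries, Mrc1 was at 55.98, 73.5 and 52.2 TPM (difference -4.11 ± 0.23, adjusted p = 4.5e-11) and Idi1 at 13.1, 12.3 and 7.15 TPM (difference -2.94 ± 0.15, adjusted p = 1.3e-11). Socs1 was higher still, at 106, 109 and 126 TPM (difference 2.51 ± 0.21, adjusted p = 1.6e-08), and Clec12a rose to 196, 208 and 292 TPM (difference 2.56 ± 0.26, adjusted p = 2.2e-07). Cx3cr1 was at 0.782, 0.704 and 0.177 TPM and did not pass (adjusted p = 0.71).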

How the data were processed

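RNA of BMDMs was sequenced in 24 libraries, 3 in each of 8 groups, after selection of polyadenylated RNA. The deposited values are TPM per gene, which the authors made with Kallisto on mouse cDNA of GRCm39. The table's title speaks of length-scaled counts. The values were taken as TPM because every library summed to 1000000 and because, among genes with 1 GENCODE transcript and under 1 in every library, the median of the lowest value above 0 was 0.333 for transcripts of 200 to 400 bases and 0.00771 for those over 4000 bases, whereas a read would be worth the same at any length if counts had only been scaled to a fixed sum. TPM are not counts, so the count test foreseen for counts was not used. The line without a gene name was left out, 199 to 635 TPM per library, and 35770 gene names remained. The depth of each library is not given in the sources used here, so no counting interval is given.

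TPM were scaled between libraries by trimmed means of M values (trims 0.3 and 0.05), 1 was added and log2 was taken. Genes above 1 TPM in at least 3 libraries were kept, 13661 in all. With limma (version 3.58.1, R 4.3.3), 8 groups were fitted over 24 libraries, with 16 residual degrees of freedom and a trend in the prior variance. Tests were two-sided, with Benjamini-Hochberg adjustment over all genes tested. An exact test of 3 against 3 libraries could not go below p = 0.1 and was not used.

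Groups came from the labels. Between KEAP1 KO/vehicle and WT/vehicle, libraries with the same number deviated together from their group means (r = 0.150, 0.353 and 0.474), as did those of WT/vehicle and media/vehicle (r = 0.145, 0.245 and 0.386), so values with the replicate number as a block are given for these 2 comparisons. The pairing comes from these correlations, since the labels do not say what a number shares.

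The comparison, 37 gene lists and 14 marker lists were chosen with earlier results of these data known. Genes named in the text are the 15 with the largest rise and the 15 with the largest fall among those that passed without overlap, the 8 per direction with the largest change in TPM, up to 6 members of each list by adjusted p, a fixed set of genes of interest, leading or undetected marker genes, and the extremes of the direct comparisons. Ear2, Egr2, Irf4, Klf4, Ccl3, Ccl4, Ccl17, Hmgcs1, Dpep2 and Nxpe5 and the list members named as not passing in the alternative activation and sterol synthesis lists fall outside this rule and were chosen after their values were seen. A few members that belong to these groups are counted but not reported by name here. Promoter windows and gene positions are from RefSeq (GRCm38.p6) and GENCODE (GRCm39), and stretches shown were placed on GRCm39 by exact match. The alternatives were other scalings, filters, pseudocounts, weights, blocks and sets of libraries. Figures were drawn with matplotlib 3.10.9 in Python 3.11.15.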

Additional observations from a re-analysis of the deposited data

Results flagged for a closer look

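Between BMDMs with KEAP1 KO CM and BMDMs with NRF2 KO CM, both with vehicle, 1235 of 13661 genes differed at an adjusted p under 0.05 by limma, which tests the 2 media directly. Each genotype is represented by the CM of 1 edited line, so line and genotype cannot be told apart. The count drew attention because the same contrast with media gave many genes for one medium and 1 gene for the other. NRF2 KO/vehicle replicate 3 listed fewer genes above 0 than any other vehicle library, and the count was 997 without it, 1789 without both NRF2 KO libraries that stood apart, and 134 when the 2 groups were fitted alone.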

How the results depend on the processing

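For KEAP1 KO/vehicle against media/vehicle, the 1101 genes that passed became 5012 with array weights, 1784 with the replicate block, 2235 when the 2 groups were fitted alone, 2850 without the 2 NRF2 KO libraries that stood apart, and 222 to 3444 when a library or a replicate number was left out. The libraries behind the lower and upper ends were replicate 1 and replicate 3 of all groups. Against WT/vehicle, 0 became 1 with no filter, 975 with array weights, 2 with the replicate block, and 0 to 8 with a library or replicate number left out. Array weights ranged from 0.0368 to 5.95. Against NRF2 KO/vehicle, 1235 became 3687 with array weights, 2202 with the block, 134 when the 2 groups were fitted alone, 723 with the 12 vehicle libraries, and 233 to 2752 with libraries left out. For WT/vehicle against media/vehicle, 988 became 4114 with array weights, 1743 with the block, 2070 with the 2 groups alone, 2552 without the NRF2 KO libraries, and 189 to 3085 with libraries left out. For NRF2 KO/vehicle against media/vehicle, 1 became 0 with no scaling, 2 with no filter, 4 with array weights, 3 with the block, 0 with the 2 groups alone, 0 with the 12 vehicle libraries, and 0 to 18 with libraries left out. For KEAP1 KO CM/CDDO-Me against KEAP1 KO/vehicle, 3932 became 7006 with array weights, 6076 without the NRF2 KO libraries, and 2008 to 6264 with libraries left out, while a fit of the 12 vehicle libraries could give no value. Where a group kept fewer libraries, its spread was taken from the other groups, and the cause of these shifts was not tested. Same-numbered libraries of KEAP1 KO/vehicle and media/vehicle had correlations of deviations of 0.0968, 0.234 and 0.400, and those of KEAP1 KO/vehicle and NRF2 KO/vehicle 0.0736, 0.189 and 0.146, so 1 pair of each comparison missed the 0.1 asked of every pair, and whether the numbers pair these libraries was not settled. The correlation was the highest with the own number for 2 of 3 and for 3 of 3. Of 133 calls for genes named in the text, 0 reversed in any alternative that gave a value, and up to 25 were lost without 1 KEAP1 KO/vehicle library, 24 without 1 media/vehicle library, and 61 and 56 without replicate 1 or 2 of all groups. Of the 126 calls against media/vehicle, 34 were lost without at least 1 of the 6 libraries.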
